A study of Homo sapiens with 8 samples.

Results

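The genes described here carry out excision repair, mismatch repair, direct reversal and lesion bypass, the pathways that deal with damaged, mispaired or modified bases without a double-strand break. The list held 55 genes, all of them among the 61228 gene symbols counted. They were picked by name from pathway membership rather than by any measured value, although earlier results of these data were known. They fell into 8 role lists, from the glycosylases that open base excision repair to the polymerases that copy past lesions. Expression was measured by RNA-seq in 8 clones of RPMI-8402, a human T-cell acute lymphoblastic leukaemia line grown untreated. The 4 NKX2-1 knockout clones were named C12, C15, S04 and S36, and the 4 wild-type clones WT10, WT13, WT28 and WT30. NKX2-1 is a homeobox transcription factor. All clones derived from 1 cell line, the kind of NKX2-1 edit was not given in the sources used here, and the meaning of the letters C and S was not labelled.

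Base excision repair starts when a glycosylase removes a damaged base, after which an endonuclease, a polymerase and a ligase cut, fill and seal the site. Nucleotide excision repair recognises bulky, helix-distorting lesions, opens the helix with the TFIIH complex and cuts out a short single strand, and mismatch repair corrects replication errors through MutS and MutL heterodimers. Translesion polymerases copy damaged templates when the replication fork stalls, under the control of ubiquitin ligases that modify the sliding clamp PCNA. Proliferating lymphoblasts are known for high levels of the replication-linked members of these pathways, such as MSH6, FEN1, UNG and LIG1.

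The RefSeq stretch of 250 bases upstream of the annotated start (GRCh38.p14) was found for 52 of the 55 genes. It is printed for the genes on which the comparisons turn, TDG (chr12:103965622-103965871, plus strand), MSH6 (chr2:47782895-47783144, plus strand) and RAD23B (chr9:107283029-107283278, plus strand), and for MSH3 (chr5:80654402-80654651, plus strand), the alternative partner against which MSH6 was set. Capitals mark matches to a GC box (GGGCGG) or to an E2F motif (TTTNGCGC), searched on both strands.
TDG: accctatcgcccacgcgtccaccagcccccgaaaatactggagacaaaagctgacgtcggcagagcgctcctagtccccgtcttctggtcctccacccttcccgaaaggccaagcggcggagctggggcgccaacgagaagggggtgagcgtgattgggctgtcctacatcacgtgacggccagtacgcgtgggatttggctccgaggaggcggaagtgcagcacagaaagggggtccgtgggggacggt
MSH6: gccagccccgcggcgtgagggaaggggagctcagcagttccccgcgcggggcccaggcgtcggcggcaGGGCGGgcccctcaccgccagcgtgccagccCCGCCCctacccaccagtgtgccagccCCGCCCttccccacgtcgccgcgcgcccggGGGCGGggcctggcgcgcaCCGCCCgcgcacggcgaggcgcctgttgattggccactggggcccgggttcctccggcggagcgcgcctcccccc
RAD23B: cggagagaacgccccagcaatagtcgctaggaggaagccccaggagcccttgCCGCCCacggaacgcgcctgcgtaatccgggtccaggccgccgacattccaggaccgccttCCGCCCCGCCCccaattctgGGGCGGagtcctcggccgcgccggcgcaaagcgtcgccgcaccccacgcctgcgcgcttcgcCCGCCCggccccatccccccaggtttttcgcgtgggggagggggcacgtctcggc
MSH3: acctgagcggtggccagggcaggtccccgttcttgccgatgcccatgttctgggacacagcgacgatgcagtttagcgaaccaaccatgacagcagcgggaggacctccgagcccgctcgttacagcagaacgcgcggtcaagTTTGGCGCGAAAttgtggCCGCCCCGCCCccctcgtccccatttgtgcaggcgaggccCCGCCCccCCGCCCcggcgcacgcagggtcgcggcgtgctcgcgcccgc
TDG had no match, MSH6 and RAD23B had 5 GC boxes each, and MSH3 had 4 GC boxes and an overlapping pair of E2F matches. A GC box was present upstream of 37 of the 52 genes (71.2%), against 42.6% of the 35116 promoters of that length in the table. An E2F match was present in 1 of the 52 (1.92%), against 1.51% of all promoters. The NK2 homeobox core (TNAAGTG), the type of motif bound by NKX2-1, was present in 2 (3.85%), XRCC1 at -37 and LIG1 at -126 from the start, against 8.73% of all promoters. The RUNX core (TGTGGT) was present in 2 (3.85%), NEIL3 at -110 and ERCC1 at -232, against 11% of all promoters. The shares are not of like sets. The listed genes were counted with 1 promoter each, whereas every promoter entry was counted for the background. The background was not matched for gene type or base composition, so the differences were not read as enrichment or depletion. These are letter matches in a short window and say nothing of binding.

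Library totals ran between 2730285 counts in C15 and 25423215 counts in C12 among knockout clones, and between 18453947 and 22916424 counts among wild-type clones. A count of 0 allowed up to 1.21 CPM (counts scaled to a common library size) in C15, the shallowest library, and up to 0.116 CPM in C12. NKX2-1 mRNA stood at 72.0, 11.3, 83.6 and 33.4 CPM in C12, C15, S04 and S36, against 53.6 to 63.2 CPM in the wild-type clones, so it was not lower in every knockout clone. An mRNA count does not report whether a coding edit is present. The 12 T-lineage markers summed to 1919 to 2350 CPM in knockout clones and 2138 to 2519 CPM in wild-type clones. The 16 markers of other cell types summed to 136 to 205 CPM and 101 to 151 CPM, mostly PECAM1, with MS4A1, LYZ, HBB, HBA1, EPCAM and COL1A2 at 0 counts in every clone. Mitochondrial genes took 14.8% to 21.2% of counts in knockout clones and 12.9% to 15.1% in wild-type clones. In these bulk libraries, fewer cells that express a gene and less of its RNA per cell cannot be told apart.

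No repair gene passed an adjusted p of 0.05 between the 4 knockout and the 4 wild-type clones, and the summed level of the list overlapped between the groups. The summed expression of the 55 genes was 3368, 3645, 2854 and 3503 CPM in C12, C15, S04 and S36, against 3538, 3583, 3492 and 3621 CPM in WT10, WT13, WT28 and WT30. Only S04 and C12 lay below every wild-type clone, and C15 lay above them all. Of the 55 genes, 50 had enough counts to be tested. Their log2 fold changes had a median of -0.03, against 0.02 over all 14243 tested genes, with 23 above 0 and 27 below. The median size of the change, whatever its sign, was 0.18 on the log2 scale for the repair genes and 0.27 for all genes. By edgeR's quasi-likelihood test with Benjamini-Hochberg adjustment, 0 of the 50 were called, against 45 of all tested genes (0.316%; 0.14% higher and 0.176% lower), and the smallest adjusted p among them was 0.155. At an unadjusted p under 0.05 there were 9 of the 50 (18%), 4 higher and 5 lower in knockout clones, against 15.5% of all genes (8.47% higher and 6.99% lower). Knockout and wild-type clones did not overlap for 5 genes (10%), 3 higher and 2 lower, against 10.1% of all genes (4.44% higher and 5.62% lower). Both shares were close to the background. DESeq2 called 2 of the 50 (4%), RAD23B higher and MSH6 lower, against 3.66% of all genes (1.9% higher and 1.76% lower). For limma-voom the count was 0 of the 50, against 94 of all 14243 tested genes.

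**Figure D1:**
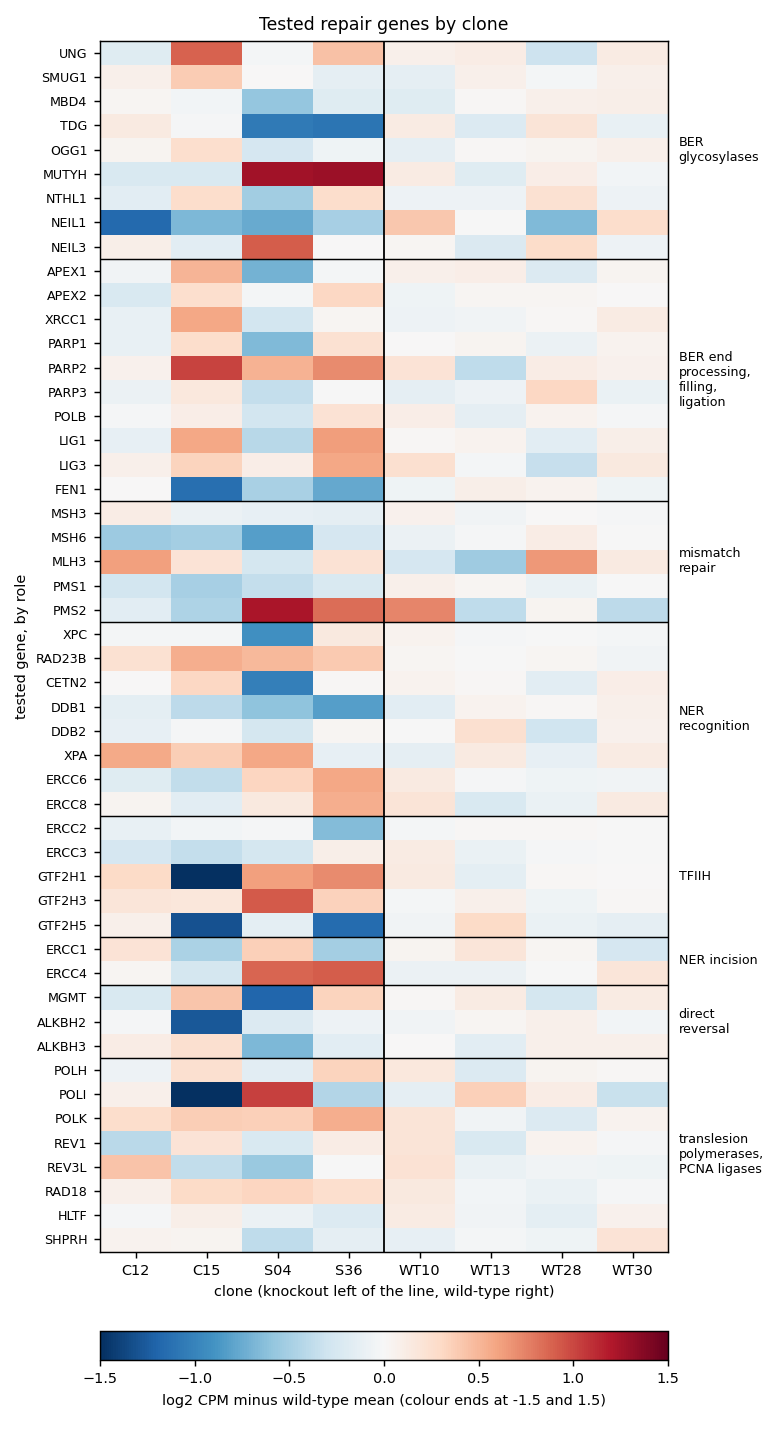
Each clone's log2 CPM minus the wild-type mean (colour) for every tested repair gene (rows, grouped by role), knockout clones left of wild-type clones. Knockout columns are more strongly coloured than wild-type columns, in part because values are centred on the wild-type mean. S04 holds the most genes below the wild-type range, 26 of 50 (52%), against 36.8% of all genes in that clone.

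Knockout clones differed among themselves more than wild-type clones did. The SD of log2 CPM was larger among knockout clones for 43 of the 50 genes (86%), against 88.9% of all tested genes. Its median was 0.36 among knockout clones and 0.13 among wild-type clones for the repair genes, against 0.47 and 0.18 for all genes. C15 was by far the shallowest library, so counting error adds to the knockout spread, and its part was not tested. C12, the deepest library, lay closest to the wild type. It had 10 of 50 genes above and 12 below the wild-type range (24.9% and 23.8% of all genes). C15 had 21 above and 18 below (35.3% and 41.9% of all genes), and S36 had 21 above and 15 below (36.7% and 36.5% of all genes). S04 had 14 above and 26 below (37.1% and 36.8% of all genes), so that 52% of the repair genes lay below the wild-type range in that clone. The wild-type clones set the range, so they cannot lie outside it. Those clone shares are descriptions and were not tested.

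Among the DNA glycosylases, 9 of 11 were tested, 4 above and 5 below 0, with a median log2 fold change of -0.01. MBD4 and UNG were the most abundant per length, at 88.9 and 92.6 CPM per kilobase in knockout clones and 101 and 73.8 in wild-type clones. MBD4 removes thymine from G:T mismatches at CpG sites, and UNG removes uracil. UNG was measured at 134, 279, 148 and 206 CPM in C12, C15, S04 and S36, against 159, 164, 123 and 165 CPM in WT10, WT13, WT28 and WT30. Its groups overlapped (log2 fold change 0.32, SE 0.22, adjusted p = 0.528 by edgeR), and without C15 the log2 fold change was 0.08. The other uracil glycosylase, SMUG1, was at 7.83, 9.69, 7.43 and 6.72 CPM in C12, C15, S04 and S36, against 6.76, 7.82, 7.27 and 7.81 CPM in the wild-type clones. These overlapped too (log2 fold change 0.07, SE 0.20, adjusted p = 0.906 by edgeR). The log2 ratio of UNG to SMUG1 differed by 0.19 between the groups (two-sided exact permutation test, p = 0.486, adjusted over 6 ratios p = 0.657).

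TDG, the glycosylase that removes thymine mispaired with guanine and the oxidised forms of methylcytosine, separated the knockout clones by their letter. It was measured at 88.9 and 79.5 CPM in C12 and C15 and at 38.5 and 37.6 CPM in S04 and S36, against 87.7, 69.8, 92.2 and 74.8 CPM in WT10, WT13, WT28 and WT30. The C clones lay at the wild-type level and both S clones lay at about the same low value. The mean was 61.1 ± 26.9 CPM in knockout clones and 81.1 ± 10.5 CPM in wild-type clones (SD, n = 4 each), with a log2 fold change of -0.42 (SE 0.28, adjusted p = 0.501 by edgeR), which was -0.69 without C12, -0.25 without S04 and -0.24 without S36. Between C and S clones the log2 difference was 1.15 (SE 0.18, adjusted p = 0.0490 by edgeR), so TDG was lower in S clones. This call sat at the threshold. It was lost without C15, without S04 and without any 1 of the wild-type clones, where the adjusted p was 0.0507 to 0.145 by edgeR, although the log2 difference stayed between 1.06 and 1.22. With S clones alone set against the wild type, TDG fell by 1.11 on the log2 scale (SE 0.15, adjusted p = 0.00524 by edgeR). With C clones alone the log2 fold change was 0.04 (adjusted p = 0.949 by edgeR). Only S04 and S36 stood for the S clones, and 14.5% of all genes passed in the S fit. In these fits and in the C against S fit, most of the spread estimate came from the wild-type clones, which varied less. The processed copy TDGP1 drew 78 counts over all clones, against 10248 for TDG.

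NEIL1 and MUTYH act on oxidised bases, NEIL1 on oxidised pyrimidines and MUTYH on adenine paired with oxidised guanine. NEIL1 shares 1831 of its 6938 annotated exon bases with MAN2C1 on the opposite strand. It was at 1.70, 2.42, 2.29 and 2.75 CPM in C12, C15, S04 and S36, against 5.27, 3.94, 2.45 and 4.75 CPM in WT10, WT13, WT28 and WT30. The highest knockout clone lay above the lowest wild-type clone, and the log2 fold change was -0.86 (SE 0.31, adjusted p = 0.231 by edgeR). MUTYH was at 0.810 and 0.807 CPM in C12 and C15 and at 2.48 and 2.52 CPM in S04 and S36, against 1.06, 0.840, 1.04 and 0.932 CPM in the wild-type clones. These rest on few counts, 21, 2, 41 and 33 in C12, C15, S04 and S36 and 16 to 22 in the wild-type clones. MUTYH shares 552 of its 3909 annotated exon bases with TOE1 on the opposite strand. Over all knockout clones the groups overlapped (log2 fold change 0.85, SE 0.43, adjusted p = 0.373 by edgeR). The S clones again stood apart, here above the others, but the C minus S difference of -1.62 (SE 0.44) did not pass the test (adjusted p = 0.118 by edgeR). OGG1, NTHL1 and NEIL3, which act on oxidised bases too, had log2 fold changes of -0.01, -0.03 and 0.28.

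**Figure D2:**
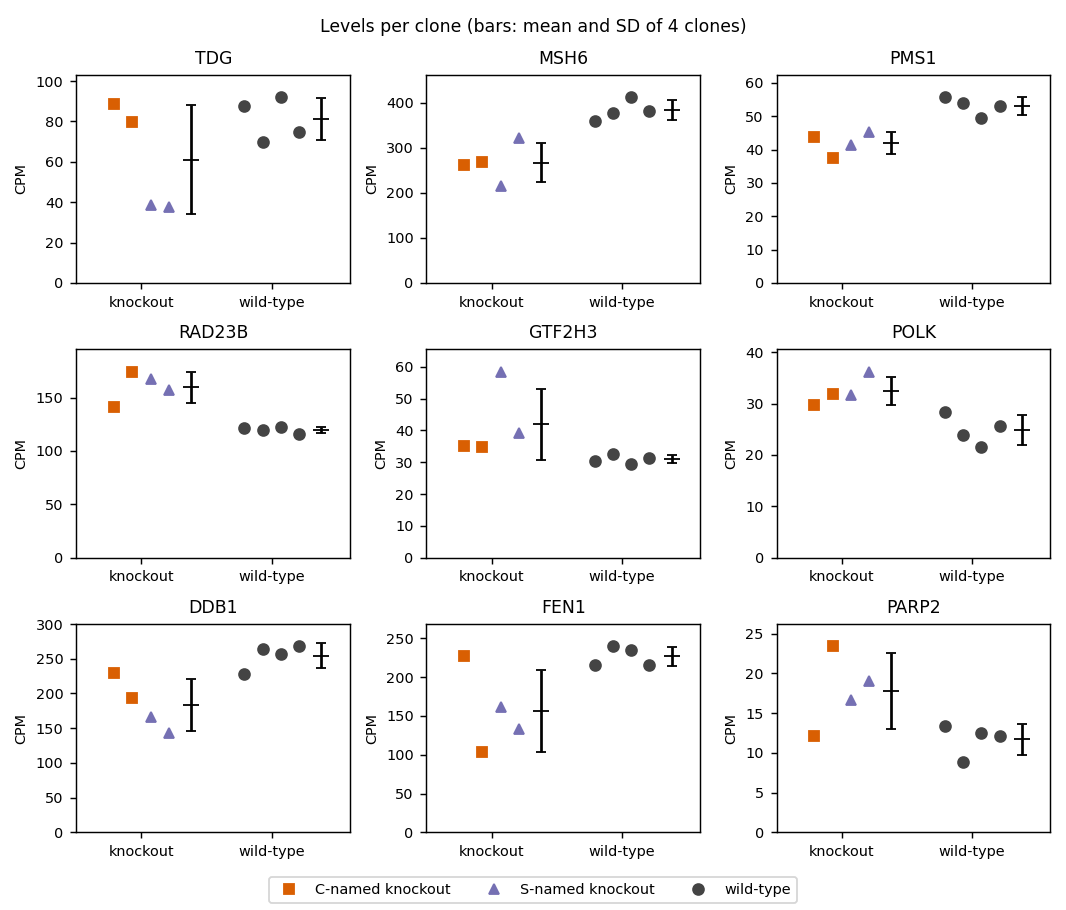
CPM by clone for 9 repair genes, knockout clones left of wild-type clones, C and S clones drawn with separate symbols and bars at the group mean. TDG is low in S04 and S36 only, at 38.5 and 37.6 CPM, whereas MSH6 and PMS1 lie below, and RAD23B, GTF2H3 and POLK above, every wild-type clone in all 4 knockout clones.

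All 10 genes of the later steps of base excision repair were tested, 6 above and 4 below 0, with a median log2 fold change of 0.04. PARP1, the sensor of DNA strand breaks, was the most abundant repair gene per length, at 134 CPM per kilobase in knockout clones and 136 in wild-type clones. It was at 498, 647, 339.8 and 632 CPM in C12, C15, S04 and S36, against 539.5, 554, 507 and 557 CPM in the wild-type clones, and S04 was the lowest (log2 fold change -0.03, SE 0.19, adjusted p = 0.968 by edgeR). FEN1, the flap endonuclease of long-patch repair and of lagging-strand replication, was at 227, 103, 162 and 133 CPM in C12, C15, S04 and S36, against 216, 239.6, 235 and 216 CPM in the wild-type clones. C15, S04 and S36 lay below every wild-type clone and C12 lay within their range. The difference was -0.53 on the log2 scale (SE 0.21, adjusted p = 0.269 by edgeR), and without C12 it was -0.77 (adjusted p = 0.0448 by edgeR). Without C12, 456 of all tested genes were called, against 45 with every clone kept.

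PARP2, the smaller relative of PARP1, was at 12.1, 23.4, 16.7 and 19.0 CPM in C12, C15, S04 and S36, against 13.4, 8.87, 12.5 and 12.1 CPM in the wild-type clones. C12 lay within the wild-type range and the other knockout clones above it (log2 fold change 0.57, SE 0.23, adjusted p = 0.270 by edgeR). The ratio of PARP1 to PARP2 counts was 41.2, 27.4, 20.4 and 33.2 in C12, C15, S04 and S36, against 40.2, 62.3, 40.5 and 45.9 in the wild-type clones. The log2 ratio differed by -0.65 (two-sided exact permutation test, p = 0.0857, adjusted p = 0.257). LIG1, the replicative ligase, was at 127, 206, 103 and 213 CPM in C12, C15, S04 and S36, against 139, 143, 124 and 147 CPM in the wild-type clones (log2 fold change 0.23, SE 0.22, adjusted p = 0.666 by edgeR). LIG3, the partner of XRCC1, shares 3754 of its 12919 annotated exon bases with RFFL on the opposite strand. LIG3 was at 53.7, 64.2, 54.6 and 76.0 CPM in C12, C15, S04 and S36, against 59.9, 49.7, 40.0 and 56.1 CPM in the wild-type clones (log2 fold change 0.27, SE 0.17, adjusted p = 0.485 by edgeR). Both overlapped between the groups, LIG1 was high in C15 and S36, without which its log2 fold change was 0.09 and 0.06 in turn, and the log2 ratio of LIG1 to LIG3 differed by -0.11 (exact permutation p = 0.629, adjusted p = 0.657). APEX1, the main abasic-site endonuclease, was at 38.1, 56.5, 24.2 and 38.7 CPM in C12, C15, S04 and S36, against 41.8, 42.3, 34.2 and 40.7 CPM in the wild-type clones (log2 fold change -0.04, SE 0.22, adjusted p = 0.961 by edgeR). Its relative APEX2 was at 33.1, 46.4, 37.97 and 48.4 CPM in C12, C15, S04 and S36, against 37.1, 39.7, 39.7 and 39.1 CPM in the wild-type clones (log2 fold change 0.09, SE 0.15, adjusted p = 0.833 by edgeR). APEX1 was highest in C15 and lowest in S04, and the log2 ratio of APEX1 to APEX2 differed by -0.15 (exact permutation p = 0.657, adjusted p = 0.657). With 4 clones a group the smallest p that the exact test can give was 0.0286. XRCC1, PARP3 and POLB had log2 fold changes between -0.09 and 0.07.

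In mismatch repair, MSH6 and PMS1 lay below every wild-type clone in all 4 knockout clones, but neither passed the test. MSH6, which pairs with the common MutS subunit to recognise base mismatches and short loops, is encoded at chr2:47695530-47810101 (plus strand, hg38). The RefSeq start used for its printed upstream stretch lies inside this GENCODE span, so the 2 sources place the start differently. The RefSeq starts of TDG, RAD23B and MSH3 also lie inside their GENCODE spans, but much nearer the GENCODE start. MSH6 shares 1785 of its 10993 annotated exon bases, in the GENCODE span, with FBXO11 on the opposite strand. It was at 262, 268, 216 and 322 CPM in C12, C15, S04 and S36, against 359, 378, 413 and 382 CPM in WT10, WT13, WT28 and WT30. The mean was 267 ± 43.4 CPM in knockout clones and 383 ± 22.4 CPM in wild-type clones (SD, n = 4 each), with a log2 fold change of -0.52 (SE 0.15, adjusted p = 0.155 by edgeR, unadjusted p = 0.00454). MSH6 passed in DESeq2 (adjusted p = 0.0350).

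PMS1, a minor MutL subunit on the same chromosome, was at 43.7, 37.5, 41.4 and 45.4 CPM in C12, C15, S04 and S36, against 55.8, 54.1, 49.5 and 53.0 CPM in the wild-type clones. The difference was -0.33 on the log2 scale (SE 0.13, adjusted p = 0.248 by edgeR). MSH3, the alternative partner that recognises larger loops, was at 49.2, 42.8, 41.9 and 41.5 CPM in C12, C15, S04 and S36, against 47.7, 43.9, 45.7 and 45.1 CPM in the wild-type clones, and the groups overlapped (log2 fold change -0.05, SE 0.13, adjusted p = 0.876 by edgeR). The ratio of MSH6 to MSH3 counts was 5.32, 6.23, 5.15 and 7.75 in C12, C15, S04 and S36, against 7.53, 8.62, 9.03 and 8.47 in the wild-type clones. S36 was the 1 knockout clone that reached the wild-type range. The log2 ratio differed by -0.48 (two-sided exact permutation test, p = 0.0571, adjusted p = 0.257).

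PMS2, the main MutL endonuclease subunit, was at 3.51 and 2.83 CPM in C12 and C15 and at 9.36 and 7.11 CPM in S04 and S36, against 6.60, 2.99, 4.06 and 2.98 CPM in the wild-type clones. Over all knockout clones the groups overlapped (log2 fold change 0.52, SE 0.40, adjusted p = 0.574 by edgeR), and the log2 fold change was 0.18 without S04 and 0.81 without WT10. The S clones lay highest, with a C minus S difference of -1.32 (SE 0.45, adjusted p = 0.188 by edgeR). PMS2 has near-identical copies, among which PMS2P4 drew 445 counts and PMS2P3 210 counts over all clones, against 680 for PMS2, so its value is uncertain. MLH3, a meiotic MutL subunit, was the least abundant tested gene per length, at 0.199 CPM per kilobase in knockout clones and 0.177 in wild-type clones.

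**Figure D3:**
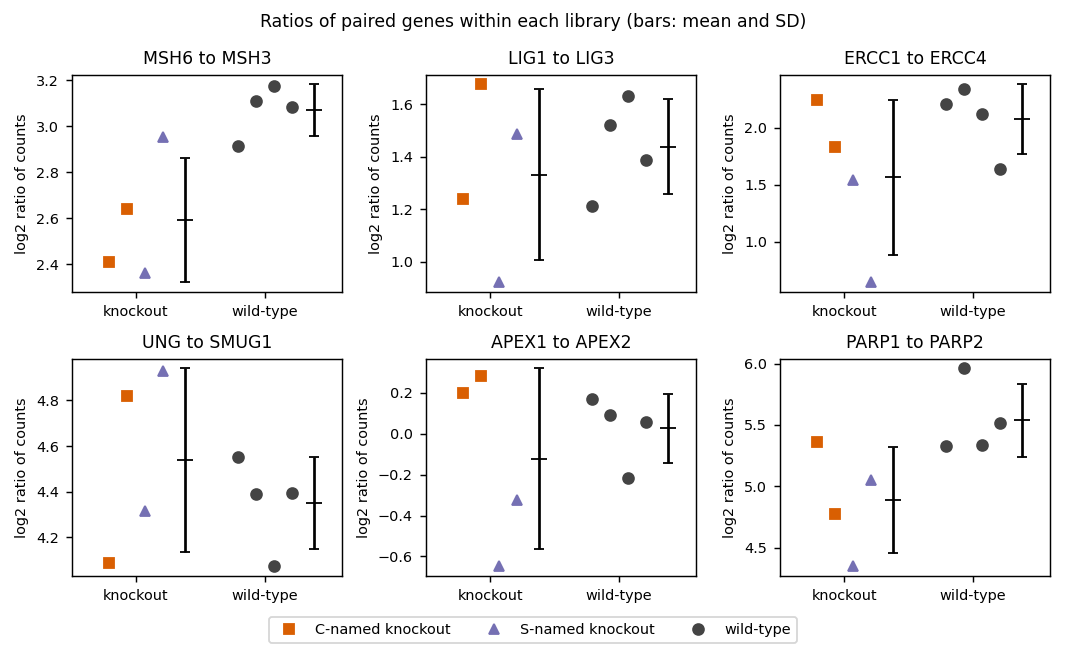
Log2 ratio of counts by clone for 6 pairs of repair genes, knockout clones left of wild-type clones. The MSH6 to MSH3 ratio is lower in C12, C15 and S04 than in any wild-type clone, and no pair passed the exact permutation test after adjustment.

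All 8 genes that recognise and verify lesions in nucleotide excision repair were tested, 4 above and 4 below 0, with a median log2 fold change of 0.03. RAD23B, which stabilises the damage sensor XPC, lies at chr9:107283137-107332194 (plus strand, hg38). It was at 141, 174, 167 and 157 CPM in C12, C15, S04 and S36, against 122, 119, 122 and 116 CPM in WT10, WT13, WT28 and WT30, with no overlap. The mean was 159.8 ± 14.6 CPM in knockout clones and 119.8 ± 2.89 CPM in wild-type clones (SD, n = 4 each), with a log2 fold change of 0.41 (SE 0.12, adjusted p = 0.165 by edgeR). RAD23B passed in DESeq2 (adjusted p = 0.0331).

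DDB1, the adaptor of the ubiquitin ligase that marks ultraviolet lesions in chromatin, was at 229.5, 193, 166 and 143 CPM in C12, C15, S04 and S36, against 228, 264, 257 and 268 CPM in the wild-type clones. C12 lay just inside the wild-type range and the other knockout clones below it (log2 fold change -0.48, SE 0.16, adjusted p = 0.202 by edgeR). Its damage-binding partner DDB2 had a log2 fold change of -0.11 and XPC one of -0.16. XPA, the verification factor, was at 31.9 to 51.9 CPM in knockout clones and 31.4 to 38.2 CPM in wild-type clones (log2 fold change 0.37, SE 0.18, adjusted p = 0.346 by edgeR). CETN2, ERCC6 and ERCC8 had log2 fold changes of -0.12, 0.16 and 0.17.

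In TFIIH, the helicase complex shared by repair and transcription, 5 of 7 genes were tested, 2 above and 3 below 0, with a median log2 fold change of -0.18. GTF2H3, a core subunit, was at 35.2, 34.7, 58.5 and 39.3 CPM in C12, C15, S04 and S36, against 30.4, 32.7, 29.5 and 31.3 CPM in the wild-type clones. The groups did not overlap and S04 was highest (log2 fold change 0.44, SE 0.18, adjusted p = 0.284 by edgeR, and 0.24 without S04). GTF2H5, the smallest subunit, was at 98.5, 37.5, 84.2 and 41.7 CPM in C12, C15, S04 and S36, against 89.7, 114, 87.0 and 85.1 CPM in the wild-type clones. C15 and S36 lay far below the wild-type range, S04 just below it and C12 inside it (log2 fold change -0.50, SE 0.28, adjusted p = 0.428 by edgeR). GTF2H1 was at 3.40 and 0.807 CPM in C12 and C15 and 4.29 and 4.58 CPM in S04 and S36, against 3.03, 2.47, 2.78 and 2.75 CPM in the wild-type clones (log2 fold change 0.36, SE 0.35, adjusted p = 0.667 by edgeR). C15 was lowest, with 2 counts, and the other knockout clones lay above every wild-type clone (C minus S difference -0.77, SE 0.45, adjusted p = 0.413 by edgeR). The helicases ERCC2 and ERCC3 had log2 fold changes of -0.19 and -0.18.

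ERCC4 and ERCC1 form the nuclease that cuts on the 5' side of a lesion. ERCC4, its catalytic subunit, was at 6.95 and 5.65 CPM in C12 and C15 and at 12.6 and 12.8 CPM in S04 and S36, against 6.39, 6.40, 6.75 and 7.72 CPM in the wild-type clones. Of its 8460 annotated exon bases, 2174 are shared with an antisense gene, AC010401.1. Knockout and wild-type clones overlapped (log2 fold change 0.52, SE 0.27, adjusted p = 0.395 by edgeR). The S clones lay above all others, with a C minus S difference of -0.97 (SE 0.26) that did not pass in edgeR (adjusted p = 0.114) and passed in DESeq2 (adjusted p = 0.0458). ERCC1, which shares 1593 of its 5576 annotated exon bases with CD3EAP on the opposite strand, was at 33.0, 20.6, 36.6 and 20.1 CPM in C12, C15, S04 and S36, against 29.5, 32.4, 29.3 and 24.1 CPM in the wild-type clones. These overlapped (log2 fold change -0.04, SE 0.22, adjusted p = 0.950 by edgeR). The log2 ratio of ERCC1 to ERCC4 differed by -0.51 (two-sided exact permutation test, p = 0.257, adjusted p = 0.514).

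All 3 direct reversal genes had log2 fold changes below 0. ALKBH2, a dioxygenase that repairs alkylated bases, was at 23.1, 9.69, 20.3 and 22.2 CPM in C12, C15, S04 and S36, against 22.6, 23.9, 24.7 and 22.7 CPM in the wild-type clones, and only C15 was far from the rest (log2 fold change -0.28, SE 0.23, adjusted p = 0.598 by edgeR, and -0.11 without C15). Its relative ALKBH3 was at 33.6 and 36.7 CPM in C12 and C15 and 19.4 and 28.0 CPM in S04 and S36, against 31.3, 28.0, 32.8 and 32.8 CPM in the wild-type clones. Only S04 was far below them (log2 fold change -0.10, SE 0.20, adjusted p = 0.846 by edgeR). MGMT, which removes alkyl groups from guanine, was at 21.3 to 65.0 CPM in knockout clones and 40.7 to 53.4 CPM in wild-type clones, and S04 was the lowest.

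All 8 translesion polymerases and PCNA ligases were tested, 4 above and 4 below 0, with a median log2 fold change of 0.02. POLK, which bypasses bulky adducts on the minor groove, was at 29.7, 31.9, 31.7 and 36.2 CPM in C12, C15, S04 and S36, against 28.4, 23.9, 21.5 and 25.6 CPM in the wild-type clones. The groups did not overlap (log2 fold change 0.38, SE 0.15, adjusted p = 0.259 by edgeR). RAD18, the ligase that adds ubiquitin to PCNA at stalled forks, was at 66.8, 77.1, 78.8 and 75.5 CPM in C12, C15, S04 and S36, against 70.2, 61.5, 59.0 and 62.7 CPM in the wild-type clones, with C12 inside the wild-type range (log2 fold change 0.23, SE 0.13, adjusted p = 0.403 by edgeR). POLI was at 4.09 and 0.404 CPM in C12 and C15 and at 8.03 and 2.83 CPM in S04 and S36, against 3.51, 4.99, 4.20 and 3.06 CPM in the wild-type clones (log2 fold change 0.10, SE 0.47, adjusted p = 0.947 by edgeR). C15 held 1 count, and the C minus S difference of -0.90 was 0.12 without S04. POLH, REV1, REV3L, HLTF and SHPRH had log2 fold changes between -0.10 and 0.09.

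Between C and S knockout clones, 1 of the 50 genes passed (TDG, 2%), against 51 of all tested genes (0.358%), and 8 of the 50 (16%) had an unadjusted p under 0.05, against 17.1% of all genes (8.94% higher in C and 8.19% higher in S). DESeq2 called TDG higher and ERCC4 lower in C clones, against 4.57% of all genes (2.9% higher and 1.67% lower). Of the 8 genes, TDG, DDB1 and ALKBH3 were higher in C clones and MUTYH, PMS2, ERCC6, GTF2H3 and ERCC4 higher in S clones. When the S clones alone were set against the wild type, 7 of the 50 genes passed (14%), 4 higher and 3 lower, against 14.5% of all genes (7.17% higher and 7.36% lower). MUTYH, RAD23B, GTF2H3 and ERCC4 rose in S clones, and TDG, DDB1 and FEN1 fell. When the C clones alone were set against the wild type, 0 of the 50 passed in edgeR, against 0.0395% of all genes (0.0264% higher and 0.0132% lower), and 6 (12%) had an unadjusted p under 0.05, against 10.3% of all genes. C15, the shallowest library, is 1 of the C clones. In the fits with C or S clones alone, most of the spread estimate came from the wild-type clones. The mitochondrial rRNA gene MT-RNR1 took 1.67% and 2.38% of counts in C12 and C15 and 4.51% and 5.52% in S04 and S36, against 1.25% to 2.02% in the wild-type clones, and its part in these differences was not tested.

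**Figure D4:**
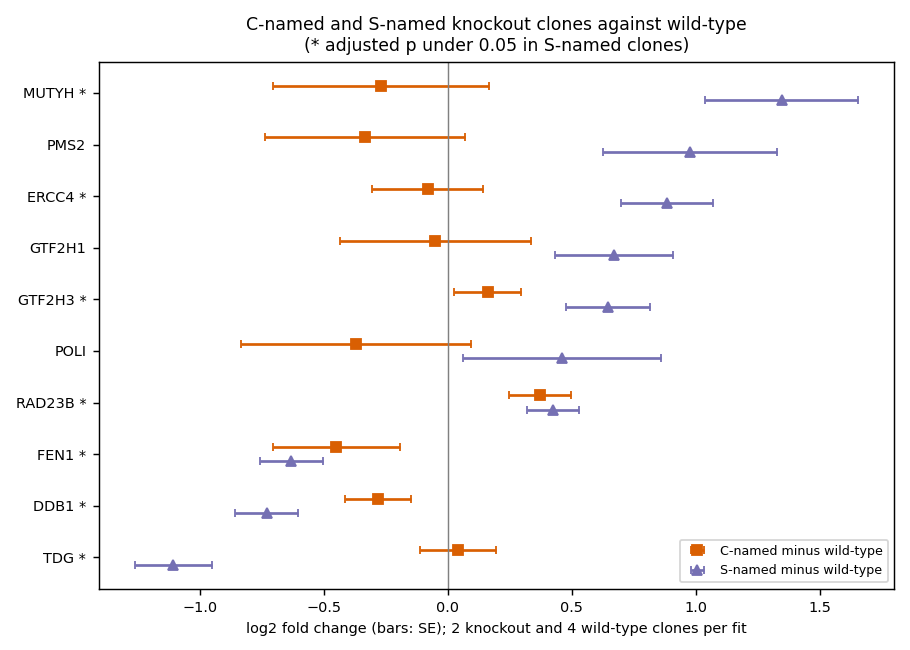
Log2 fold change over the wild type, with its SE, in C clones (squares, drawn above) and S clones (triangles) for 10 repair genes, those called in S clones (asterisks) and those of largest C minus S difference. TDG lies at 0.04 in C clones and at -1.11 in S clones, and RAD23B at 0.37 and 0.42.

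MSH6 and PMS1 on chromosome 2 and RAD23B on chromosome 9 lay on the same side of the wild type as the median gene of their chromosome in all 4 knockout clones. Over 948 tested genes of chromosome 2 the median log2 difference from the wild-type mean was -0.34, -0.43, -0.36 and -0.24 in C12, C15, S04 and S36, and over 512 genes of chromosome 9 it was 0.21, 0.37, 0.40 and 0.36. The wild-type clones lay within 0.033 and 0.024 of 0. Averaged over the knockout clones, MSH6 lay 0.54 and PMS1 0.34 log2 units below the wild-type mean, ERCC3 lay at -0.19 and REV1 at -0.08. Less their chromosome's median, these were -0.19, 0.001, 0.15 and 0.26. On chromosome 9, RAD23B lay at 0.41 and XPA at 0.35, and less the chromosome's median at 0.08 and 0.02. With each clone's chromosome median removed from every gene, the log2 fold change was -0.18 for MSH6 (adjusted p = 0.609 by edgeR) and 0.08 for RAD23B (adjusted p = 0.783), and 0 of the 50 genes passed, against 0.246% of all genes (0.126% higher and 0.119% lower). At an unadjusted p under 0.05 there were 6 (12%), against 13.4% of all genes. Whether copy number of these chromosomes differed between the clones was not tested.

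**Figure D5:**
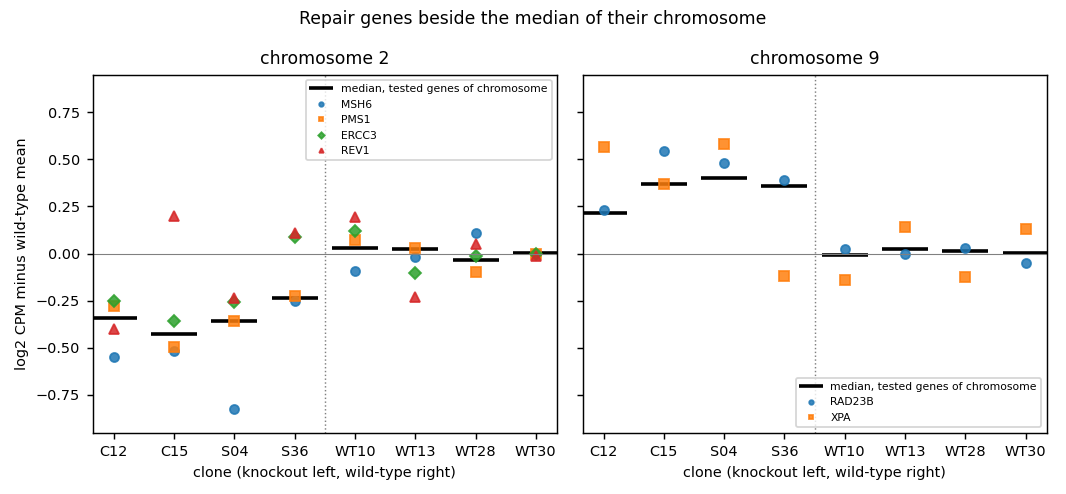
Median log2 difference from the wild-type mean over all tested genes of chromosomes 2 and 9, with the repair genes encoded there drawn as points, by clone and with knockout clones left of wild-type clones. In all 4 knockout clones MSH6 and PMS1 lie below 0, as the chromosome 2 median does, and RAD23B lies above 0, as the chromosome 9 median does, whereas ERCC3, REV1 and XPA cross 0 in at least 1 of them.

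A further 54 genes of the same pathways, such as the clamp loader, the replicative polymerases and their cofactors, were read from the same fit. Of the 51 tested, 22 were above and 29 below 0, with a median log2 fold change of -0.04. In edgeR and in DESeq2 0 passed, against 0.316% and 3.66% of all genes. At an unadjusted p under 0.05 by edgeR there were 9 (17.6%), against 15.5% of all genes. Knockout and wild-type clones did not overlap for 7 (13.7%), against 10.1% of all genes. Between C and S clones 1 of the 51 (1.96%) passed in edgeR, against 0.358% of all genes. There 13 (25.5%) had an unadjusted p under 0.05, against 17.1% of all genes. The smallest adjusted p values belonged to SMARCAL1, a fork-remodelling helicase, and APLF, an end-joining cofactor, both on chromosome 2, and to RFC2 and POLE2, subunits of the clamp loader and of a replicative polymerase. SMARCAL1 was at 9.41, 7.27, 7.25 and 5.50 CPM in C12, C15, S04 and S36, against 12.8, 12.4, 11.6 and 10.3 CPM in the wild-type clones (log2 fold change -0.67, adjusted p = 0.187 by edgeR). APLF had a log2 fold change of -0.83 (adjusted p = 0.198 by edgeR), RFC2 of 0.50 (0.200) and POLE2 of 0.68 (0.201). With chromosome medians removed the log2 fold changes were -0.32 for SMARCAL1, -0.48 for APLF, 0.53 for RFC2 and 0.71 for POLE2.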

How the data were processed

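RNA-seq of 8 clones of 1 cell line was analysed, 4 NKX2-1 knockout and 4 wild-type, grouped by their labels. The authors deposited 1 table of whole-number read counts per gene symbol, not normalised. The build hg38 and the tools FastQC, TopHat2, SAMtools and Subread are named, per the submitters' processing notes. Their roles, versions and the strand setting were not given in any source used here, so reads of overlapping and antisense genes cannot be told apart. Genes were kept by filterByExpr and scaled by TMM in edgeR 4.0.16 (R 4.3.3). CPM values are TMM-normalised, and log2 CPM used a prior count of 2. The main test was edgeR's two-sided quasi-likelihood test over all 14243 tested genes with Benjamini-Hochberg adjustment and a threshold of 0.05, fitted for knockout against wild-type clones and, with 3 groups, for C against S clones. Log2 ratios of counts + 0.5 were compared by two-sided exact permutation tests over 70 assignments, adjusted over 6 ratios. Levels are given per kilobase of the principal transcript of GENCODE release 29, and gene positions come from the same release. DESeq2 1.42.0 and limma 3.58.1 (voom), other scalings and filters, thinned counts, removal of chromosome medians and leaving out clones were the alternatives. The statistics were run on simulated counts drawn with the same spread in every clone. Those runs therefore do not cover the larger spread seen among knockout clones.

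The genes given in full were those past the threshold, those without overlap between groups, the 2 of smallest p in each role list, the 6 of largest C minus S difference and the members of the ratios. The gene list, the role lists and the tests were chosen with earlier results of these data known. Some genes of these lists are not reported here. The labels do not say that the clones were cultured or sequenced separately, so a p-value covers only the spread among them, which may be technical. Totals were 2730285 to 25423215 counts per clone, and limits from a count of 0 cover counting error only.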

Additional observations from a re-analysis of the deposited data

Results flagged for a closer look

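Of 68 groups of 4 clones examined for a value far from the others, 2 held one, where chance gives about 1 in 20 groups, or 3.4. ALKBH2 in C15 had a log2 CPM of 3.29, below the other knockout clones, and C15 is the shallowest library. UNG in WT28 had a log2 CPM of 6.94, below the other wild-type clones. TDG differed between the C and the S knockout clones by 1.15 on the log2 scale (adjusted p = 0.0490 by edgeR), while neither the C clones nor all 4 knockout clones together differed from the wild type past the threshold. What the letters stand for is not labelled, so clone and letter cannot be told apart.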

How the results depend on the processing

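No paired analysis was possible because the labels give clone names and no replicate numbers shared between the groups. Counts of called genes depended on the fit. Between knockout and wild-type clones 45 genes were called, 3 to 456 with 1 clone left out, 581 with no filter, 521 in DESeq2, 94 in limma-voom, 6 with C clones alone, 2211 with S clones alone and 3 with counts thinned to the shallowest library. Between C and S clones 51 were called, 0 to 749 with 1 clone left out, 14 with DESeq2 size factors, 20 with upper-quartile scaling, 762 with no filter, 14 with the stricter filter, 651 in DESeq2 and 89 in limma-voom. Leaving out a C or S clone left 1 clone in that arm, whose spread was then taken from the other groups.

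Of the 50 repair genes, 0 were called between knockout and wild-type clones, 0 to 1 with 1 clone left out, 2 in DESeq2 and 7 with S clones alone. Between C and S clones 1 was called, 0 to 2 with 1 clone left out (ALKBH2 joined TDG without C12, and CETN2 without S36), 0 with DESeq2 size factors, upper-quartile scaling or the stricter filter, and 2 in DESeq2. TDG kept its C minus S direction in all of these, with adjusted p values of 0.0510, 0.0513 and 0.0504 under the scalings and the filter. Of the other repair genes, 0 to 1 of 51 were called with 1 clone left out and 12 (23.5%) with S clones alone, against 14.5% of all genes in that fit.

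Over the 50 repair genes, 21 signs turned with C clones alone and 4 with S clones alone. Among the 28 genes given in full, with C clones alone the log2 fold change was 0.042 for TDG, -0.27 for MUTYH, 0.20 for APEX1, -0.020 for APEX2, 0.066 for PARP1, 0.0089 for MSH3, -0.34 for PMS2, -0.050 for GTF2H1, -0.081 for ERCC4, 0.14 for ALKBH3 and -0.37 for POLI. With S clones alone it was -0.080 for SMUG1. Thinned counts gave -0.18 for SMUG1, 0.023 for PARP1 and -0.49 for POLI, limma-voom gave -0.0076 for POLI, and removing chromosome medians gave 0.0061 for APEX1 and 0.0091 for PMS1. With 1 clone left out the log2 fold change ran from -0.021 to 0.13 for SMUG1, -0.25 to 0.14 for APEX1, -0.0092 to 0.18 for APEX2, -0.14 to 0.13 for PARP1, -0.21 to 0.090 for ERCC1, -0.21 to 0.057 for ALKBH3 and -0.45 to 0.34 for POLI, and the POLI difference between C and S clones from -3.74 to 0.12. Leaving out 1 clone moved the log2 fold change of 17 of the 28 by over 1.5 times, for GTF2H5 to between -0.77 and -0.33 and for LIG3 to 0.15 without S36 and 0.16 without WT28. The log2 ratio difference ran from -0.22 to 0.029 for LIG1 to LIG3 and from -0.28 to 0.027 for APEX1 to APEX2. The causes were not tested. Depth limits the low genes, since a count of 0 in C15 allows 1.21 CPM.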

Other observations

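The 5 repair genes left out of the test had few or no counts. MPG, the glycosylase of alkylated purines, had 5, 0, 3 and 9 counts in C12, C15, S04 and S36, against 9, 3, 8 and 8 counts in WT10, WT13, WT28 and WT30. NEIL2 had 2 counts in WT28 and 0 elsewhere. GTF2H2 had 0 counts in every clone, while its near-identical copy GTF2H2C had 89 counts over all clones. GTF2H4 had 0 counts in every clone and shares 1858 of its 2353 exon bases with VARS2, which was also at 0 counts. ERCC5, the nuclease that cuts on the other side of the lesion from ERCC4, had 1, 0, 16 and 0 counts in C12, C15, S04 and S36, against 0, 0, 0 and 2 counts in the wild-type clones, and shares 5213 of its 8242 exon bases with the readthrough gene BIVM-ERCC5, which was at 0 counts. How reads on shared exons were counted is not given in the sources used here, so none of these values says that a gene was silent.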
